A study of Rattus norvegicus with 23 samples.

Results

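Rats that kept taking methamphetamine (METH) through every footshock phase were compared with rats that cut their intake in every phase, by RNA sequencing of the dorsal striatum. The compulsive rats are the always shock-resistant group (ASR, labelled METH Shock Resistant) and the non-compulsive rats are the always sensitive group (AS, labelled METH Shock Sensitive). The comparison used 12 of the 23 libraries of the study, those labelled with these treatments, with 6 ASR and 6 AS rats and 1 library per rat. The other libraries came from 6 saline controls (CT) and from 5 rats with delayed resistance (DSR, labelled Resurgence METH Shock Resistant), and they entered the same fit. All were adult male wild type Long Evans rats.

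The METH rats had pressed a lever for 0.1 mg/kg METH per infusion over 22 training days. Footshocks that increased from 0.18 to 0.36 mA were then added for 8 days, and 15 days of forced abstinence followed. A second self-administration phase of 12 days included or was followed by 3 days of 0.30 mA footshocks, and the rats were euthanized after a second abstinence period that ended with a drug seeking test. The CT rats self-administered saline and received no footshocks. ASR and AS rats had the same schedule and were separated by their own response to it, so METH intake and the number of shocks received cannot be told apart from the group.

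The dorsal striatum is the input station of the basal ganglia. Its GABAergic projection neurons receive glutamate from the cortex and dopamine from the midbrain, and it is known for its part in habits and in drug taking that has become compulsive. METH enters dopamine terminals and releases their dopamine, and repeated intake is known to alter gene expression in the projection neurons. The deposited counts give genes by Ensembl identifier without symbols. Genes are therefore described here by position, genomic span, structure and level, and the markers of striatum and of neighbouring tissue could not be checked. In a piece of tissue, fewer cells of a type and less RNA per cell cannot be told apart.

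Library totals ranged from 20946656 to 27767632 counts in ASR and from 19921481 to 24019678 in AS rats, and 5 of the 6 ASR libraries detected more genes than every AS library. Neither difference passed a two-sided exact permutation test (total, p = 0.0671; genes with a count, p = 0.0563; adjusted p = 0.201 for both over 6 library measures). Each rat has a code with the number 7 or 8, treated here as a cohort, whose meaning the sources do not explain. Cohort 7 held 3 ASR and 4 AS rats and cohort 8 held 3 ASR and 2 AS rats. In the AS group, 2 libraries are pointed out. Mitochondrial genes took 19.6% of the counts in rat Grp7-R1, whereas the share in the remaining AS rats was 11.9% to 13.3%. Rat Grp7-L10 lay at -1.56 on the first principal component of the 500 most variable genes (38.4% of the variance), whereas the AS median was 17.6 and the ASR rats spanned -14.4 to 11.8. This distance did not pass Dixon's test, and the rat passed it only over gene sets that were chosen with it among the AS rats. Results are given with and without these rats where they matter.

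Of 32552 genes listed, 16275 had enough counts to be tested. In the quasi-likelihood test of edgeR, 0 genes had a Benjamini-Hochberg adjusted p under 0.05 (0% of those tested), and the smallest adjusted p was 0.571. At an unadjusted p under 0.05, 838 genes were higher in ASR rats (5.15%) and 570 were lower (3.5%), so 59.5% of these 1408 genes were on the higher side. A gene past this unadjusted threshold is referred to as called. The direction of the calls was not that of the bulk of genes, since the median log2 fold change over all genes tested was -0.0095 and 46.7% of genes were above 0. The median log2 fold change was 0.33 among the genes called higher and -0.26 among those called lower. Changes of 2-fold or more were found in 70 of the genes called higher and in 14 of those called lower. DESeq2 on all groups also had 0 genes with an adjusted p under 0.05 (smallest 0.122, with 1537 genes at an unadjusted p under 0.05). DESeq2 on the ASR and AS rats alone had 21 (1883 unadjusted).

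Single rats moved these counts. Without AS rat Grp7-L10, 1522 genes were called higher and 691 lower, and the smallest adjusted p by edgeR was 0.0515. Without AS rat Grp7-R9, 543 genes were called higher. The genes called lower numbered 358 without AS rat Grp7-R1, 335 without AS rat Grp7-R2, 347 without ASR rat Grp8-R4 and 367 without ASR rat Grp8-R7. In cohort 7 alone 375 genes were called higher and 313 lower, whereas in cohort 8 alone 894 were called higher and 368 lower, and 20 genes there had a Benjamini-Hochberg adjusted p under 0.05 by edgeR.

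The gene sets of the study were formed with a 1.5-fold threshold besides the unadjusted p. By this rule, 209 genes were higher in ASR rats (1.28%) and 77 were lower (0.473%). The lower genes had lower counts than the higher genes. The median level, as CPM (counts scaled to the size of the library and not corrected for gene length), was 0.714 for the 77 lower genes and 2.57 for the 209 higher genes, against 18.0 over all genes tested. Below 1 CPM were 57.1% of the lower and 33% of the higher genes, and at 30 CPM or more were 1 lower and 19 higher genes. The lower genes were also compact, with a median genomic span of 7377 bases and 4 exon blocks, against 25645 bases and 7 blocks for the higher genes and 19292 bases and 8 blocks for all genes tested. The higher set numbered 412 genes when AS rat Grp7-L10 was left out and 139 when ASR rat Grp7-L4 was, and the lower set numbered 118 without ASR rat Grp7-R4.

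**Figure D1:**
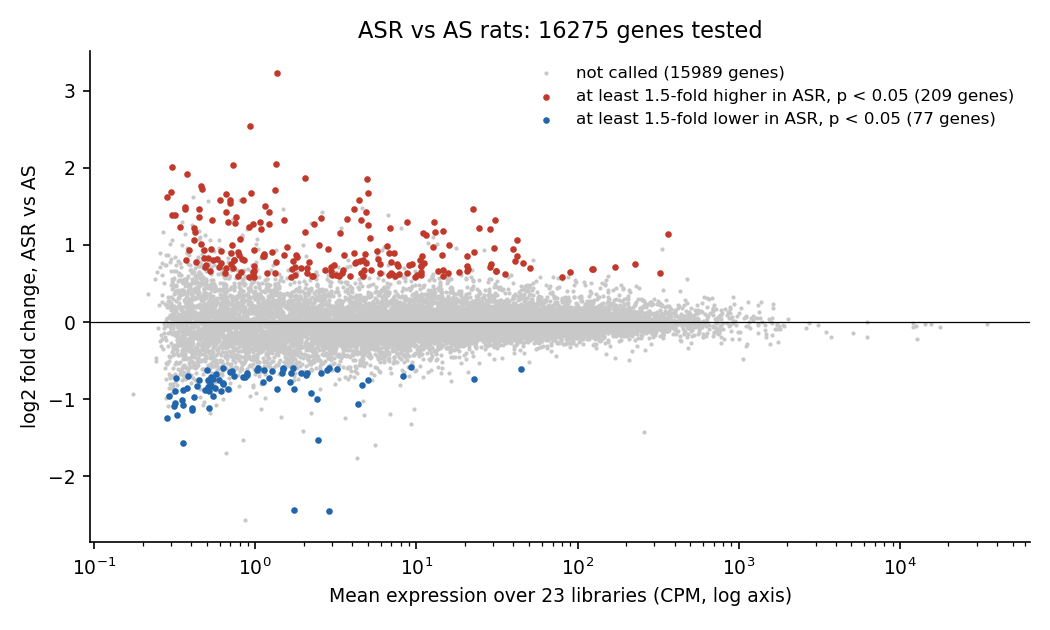
Log2 fold change in ASR vs AS rats (vertical axis) against the mean level over the 23 libraries in CPM (horizontal log axis), with 1 point per gene tested. The 209 genes at least 1.5-fold higher in ASR rats (red) include 19 at 30 CPM or more, whereas 44 of the 77 lower genes (blue) lie under 1 CPM.

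The difference that called these genes was taken between ASR and AS rats, while the spread behind each p and the filter also drew on the CT and DSR rats of the same fit. The levels of all 4 groups are given side by side. For each rat, the median over a set was taken of log2 CPM minus the mean of all 23 rats. Over the 209 higher genes, the ASR rats had a lowest value of -0.22, a median of 0.19 and a highest value of 0.63. The AS rats had -0.83, -0.68 and -0.059. The lowest ASR rat was below the highest AS rat, which was Grp7-L10, and the other 5 AS rats lay between -0.83 and -0.61. The CT rats had a lowest value of -0.34, a median of 0.36 and a highest value of 0.66, and the DSR rats -0.19, 0.34 and 0.59. CT and DSR rats thus overlapped with the ASR rats, and 5 of 6 AS rats lay below every CT and DSR rat. The median log2 fold change of these genes was -0.060 in ASR vs CT and -0.94 in AS vs CT, 2 comparisons that share the CT libraries. The AS rats took part in choosing these genes, so their distance from CT and DSR rats follows in part from the choice.

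The 77 lower genes were placed differently. The ASR rats lay between -0.33 and -0.20 with a median of -0.25, and the AS rats between 0.093 and 0.52 with a median of 0.45, the lowest AS rat again being Grp7-L10. The CT rats lay between -0.22 and 0.057 with a median of -0.023, between the ASR and AS medians. At the median these genes differed from CT rats by -0.20 in ASR and by 0.58 in AS rats on the log2 scale. In DSR rats these genes were widely spread, from -0.25 to 0.29. Because ASR and AS rats chose the genes, the gap between those groups is a description of the choice. The distance of either group from CT and DSR rats is so in part.

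**Figure D2:**
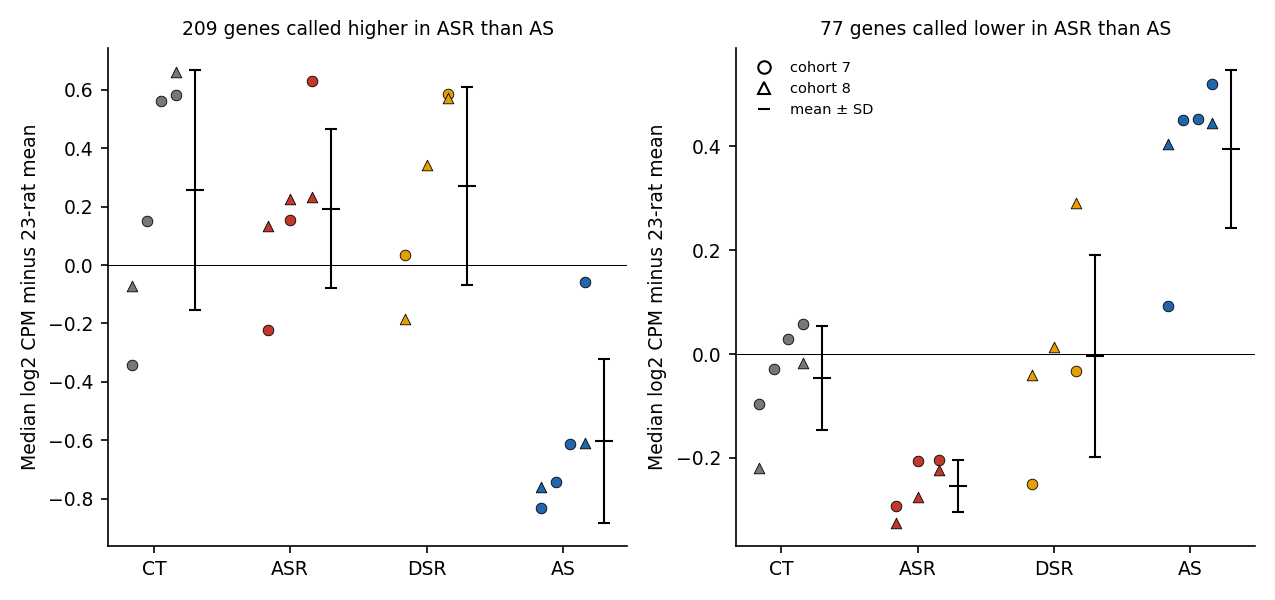
Median log2 CPM minus the mean of 23 rats (vertical axis) for each rat by group, over the 209 genes called at least 1.5-fold higher (left) and the 77 called lower (right) in ASR than AS rats; circles are cohort 7, triangles cohort 8, bars the mean ± SD (n = 6 CT, 6 ASR, 5 DSR and 6 AS). In the left panel 5 of 6 AS rats lie below every other rat, and AS rat Grp7-L10, at -0.059, lies among the other groups. The ASR and AS rats shown were used to choose the genes.

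The 2 identifiers higher and the 2 lower in ASR rats with the smallest p among genes of the 1.5-fold sets with a mean of at least 1 CPM are given with their values. Their levels are low beside the median of 18.0 CPM over all genes tested. They were picked for their p in this contrast, so the permutation p of each follows from the choice. In part, the agreement of the cohorts and the distance from CT and DSR rats follow from it too. All had an adjusted p of 0.571 by edgeR (quasi-likelihood, Benjamini-Hochberg). Positions are on Rnor6.0.

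ENSRNOG00000056493 is a gene of 34 exon blocks on the minus strand of chromosome 7 (29086156 to 29171783). Its level had a lowest value of 1.00, a median of 1.33 and a highest value of 2.18 CPM in ASR rats and 0.427, 0.539 and 0.966 CPM in AS rats. The groups did not overlap. The log2 fold change was 1.30 (SE 0.29), or 2.46-fold, with the smallest p that a two-sided exact permutation test of 6 against 6 rats allows (p = 0.00216). It rested on 24 to 56 counts per ASR library and 9 to 23 per AS library. The adjusted p of this gene was 0.122 by DESeq2 on all groups. On the ASR and AS rats alone it was 0.0274 by DESeq2 and 0.389 by edgeR. The remaining named genes had adjusted p of 0.129 to 0.166 by DESeq2 on those rats. The log2 fold change was 1.32 in cohort 7 and 1.29 in cohort 8. CT rats spanned 0.797 to 1.65 CPM with a median of 1.24, and DSR rats 0.281 to 1.20 CPM with a median of 0.979. Both overlapped with the ASR and with the AS rats, but only the lowest CT rat was below the highest AS rat. ASR differed from CT rats by 0.24 and AS from CT rats by -1.06 on the log2 scale.

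ENSRNOG00000026579, with 13 exon blocks, lies on the minus strand of chromosome 1 (219864113 to 219898243). Its lowest, median and highest levels were 1.49, 1.92 and 2.48 CPM in ASR rats and 0.702, 1.16 and 1.58 CPM in AS rats. A single ASR rat was below the highest AS rat. The log2 fold change was 0.71 (SE 0.18; exact permutation p = 0.00433) and rested on 40 to 67 counts per ASR library and 14 to 33 per AS library. It was 0.53 in cohort 7 and 1.14 in cohort 8. The 6 CT rats, from 1.72 to 2.77 CPM, were all above the highest AS rat, and the DSR rats spanned 1.45 to 2.38 CPM.

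ENSRNOG00000002599 was lower in ASR rats. It has 5 exon blocks on the plus strand of chromosome 10 (47930633 to 47949773), and 1 gene on the other strand overlaps it. No strand setting of the counting is stated in the sources used here, so reads of these overlapping genes may not be told apart. Its lowest, median and highest levels were 1.16, 1.53 and 2.07 CPM in ASR rats and 1.94, 2.28 and 3.84 CPM in AS rats, and the ranges overlapped by 1 rat on each side. The log2 fold change was -0.66 (SE 0.19; exact permutation p = 0.00433). It was -0.88 in cohort 7 and -0.27 in cohort 8, where it did not pass an unadjusted p of 0.05, and -0.49 without AS rat Grp7-R1, whose level was the highest. CT rats spanned 1.09 to 2.14 CPM, close to the ASR rats. DSR rats spanned 1.57 to 2.35 CPM with a median of 2.05, and overlapped with both the ASR and the AS rats.

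ENSRNOG00000024922 has 10 exon blocks on the plus strand of chromosome 12 (22142520 to 22152871). Its lowest, median and highest levels were 0.788, 0.935 and 1.31 CPM in ASR rats and 1.25, 1.60 and 1.82 CPM in AS rats, again with an overlap of 1 rat on each side. The log2 fold change was -0.66 (SE 0.19; exact permutation p = 0.00433), and it was -0.60 in cohort 7 and -0.61 in cohort 8. The cohort 8 value did not pass an unadjusted p of 0.05. Here the CT rats overlapped with both groups, from 0.924 to 2.18 CPM, and the DSR rats, from 1.61 to 2.35 CPM, were all above the ASR rats. ASR differed from CT rats by -0.46 and AS from CT rats by 0.20 on the log2 scale.

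**Figure D3:**
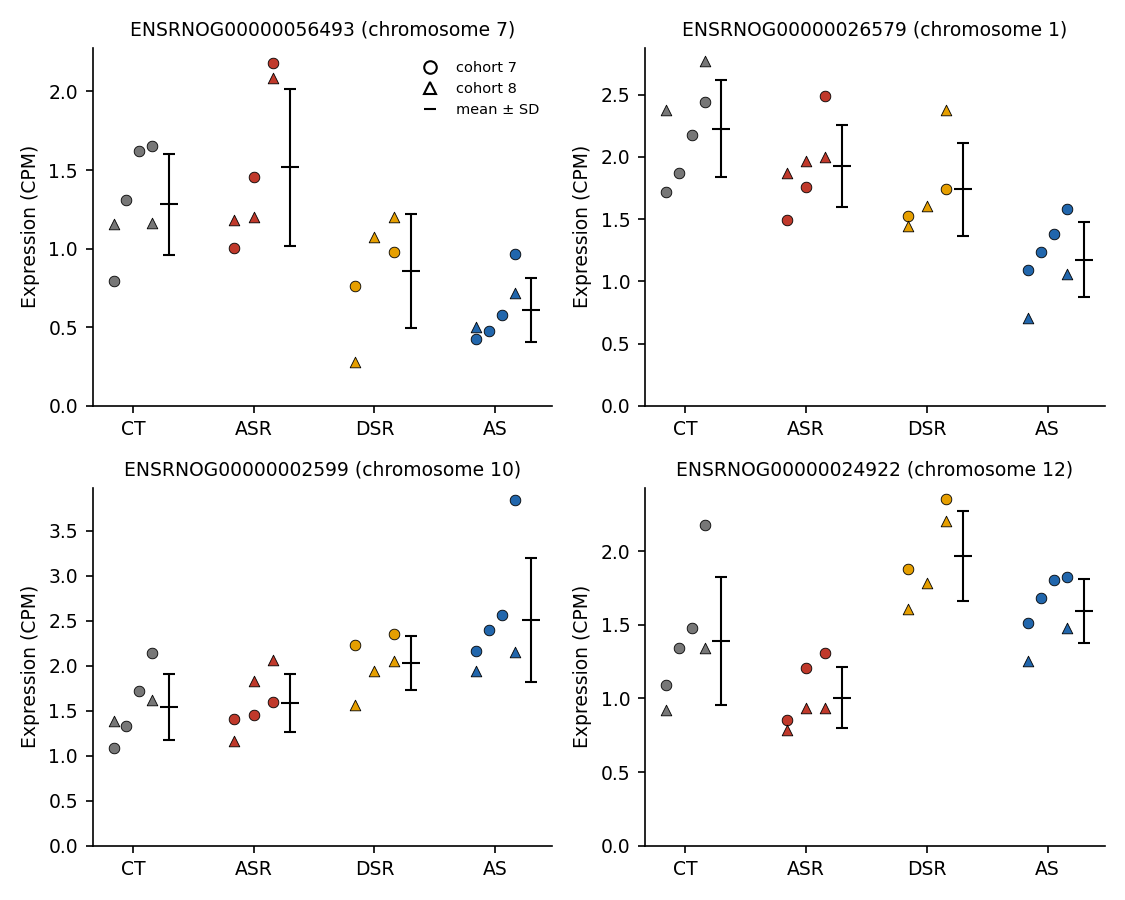
Level in CPM (vertical axis) of the 2 genes higher (upper panels) and the 2 genes lower (lower panels) in ASR than AS rats with the smallest p, 1 point per rat in the 4 groups; circles are cohort 7, triangles cohort 8, bars the mean ± SD (n = 6 CT, 6 ASR, 5 DSR and 6 AS). ENSRNOG00000056493 has no overlap between ASR (1.00 to 2.18 CPM) and AS rats (0.427 to 0.966 CPM).

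Over all genes tested, the 6 ASR rats were all above the 6 AS rats in 32 genes (0.197%) and all below them in 26 genes (0.16%). The 32 genes had a median span of 67660 bases and 17 exon blocks, and the 26 had 12915 bases and 8 blocks. Only 9 of the former and 3 of the latter passed the 1.5-fold threshold, so most of the separated genes differed by little, with a median log2 fold change of 0.29 and -0.25.

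The span of a gene on the genome, introns included, went along with the direction of the calls. Among 3388 genes of less than 5 kb, 3.63% were called higher and 4.13% lower in ASR rats. Among 1271 genes of 100 to 200 kb the shares were 8.66% and 1.65%. Among 605 genes of 200 to 500 kb they were 11.1% and 1.82%. Of 113 genes of 500 kb or more, 21 were called higher (18.6%) and 2 lower (1.77%), so that the share called higher increased over each of the 7 span classes. In brain, genes of this size are known to include many that encode adhesion molecules of neurons, synaptic proteins and ion channels, but which proteins these genes encode was not examined.

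Taking the 718 genes of 200 kb or more together, 88 were called higher (12.3%) and 13 lower (1.81%). Their changes were small, with a median log2 fold change of 0.071 against -0.028 for the 8299 genes under 20 kb, and 22 were at least 1.5-fold higher. With RLE in place of TMM factors, the medians were 0.078 and -0.020. The difference by span was present at each level, since 7.69% of the long and 3.47% of the short genes were called higher under 5 CPM, 12.7% and 4.02% at 5 to 30 CPM, and 14.1% and 4.44% at 30 CPM or more. With exons of under 3000 bases in all, 9.17% of the long and 3.50% of the short genes were called higher, whereas with 5000 bases or more the shares were closer, at 13.3% and 9.25%. Genes of 21 or more exon blocks, which tend to be long, had 7.57% called higher and 1.69% lower.

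Rat by rat, the difference in long genes was not uniform. The median over long genes of log2 CPM minus the mean of all rats had a lowest value of -0.051, a median of -0.010 and a highest value of 0.10 in ASR rats, and -0.097, -0.053 and -0.028 in AS rats. The 3 ASR rats of cohort 8, from 0.022 to 0.10, were above every AS rat. The 3 ASR rats of cohort 7, from -0.051 to -0.042, lay within the range of the AS rats of that cohort, from -0.097 to -0.028. In cohort 8 alone 108 long genes were called higher (15%, against 5.43% of all genes tested there), with a median log2 fold change of 0.11. In cohort 7 alone 18 were (2.5%), which is close to the 2.27% of all genes tested there, with a median of 0.030. Leaving out AS rat Grp7-L10 gave 141 long genes called higher (19.6%, against 9.37% of all genes). Leaving out AS rat Grp7-R9 gave 55 (7.66%, against 3.35%). Long genes called lower numbered 6 without ASR rat Grp7-L4 (0.836%, against 2.45% of all genes called lower). They numbered 7 without AS rat Grp7-R1 (0.976%, against 2.2%).

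The saline rats spread more widely than this difference, from -0.11 to 0.19, and the DSR rats lay between 0.0043 and 0.18. The median log2 fold change of the long genes was -0.0032 in ASR vs CT and -0.067 in AS vs CT. In DSR vs CT, which shares no library with ASR vs AS, it was 0.058 for the long genes and -0.022 for the genes under 20 kb. ASR and DSR libraries had the highest totals, with medians of 24715372.5 and 25142742 counts against 22585854 in AS and 22238985 in CT rats, and the part of depth in the difference by span was not tested.

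**Figure D4:**
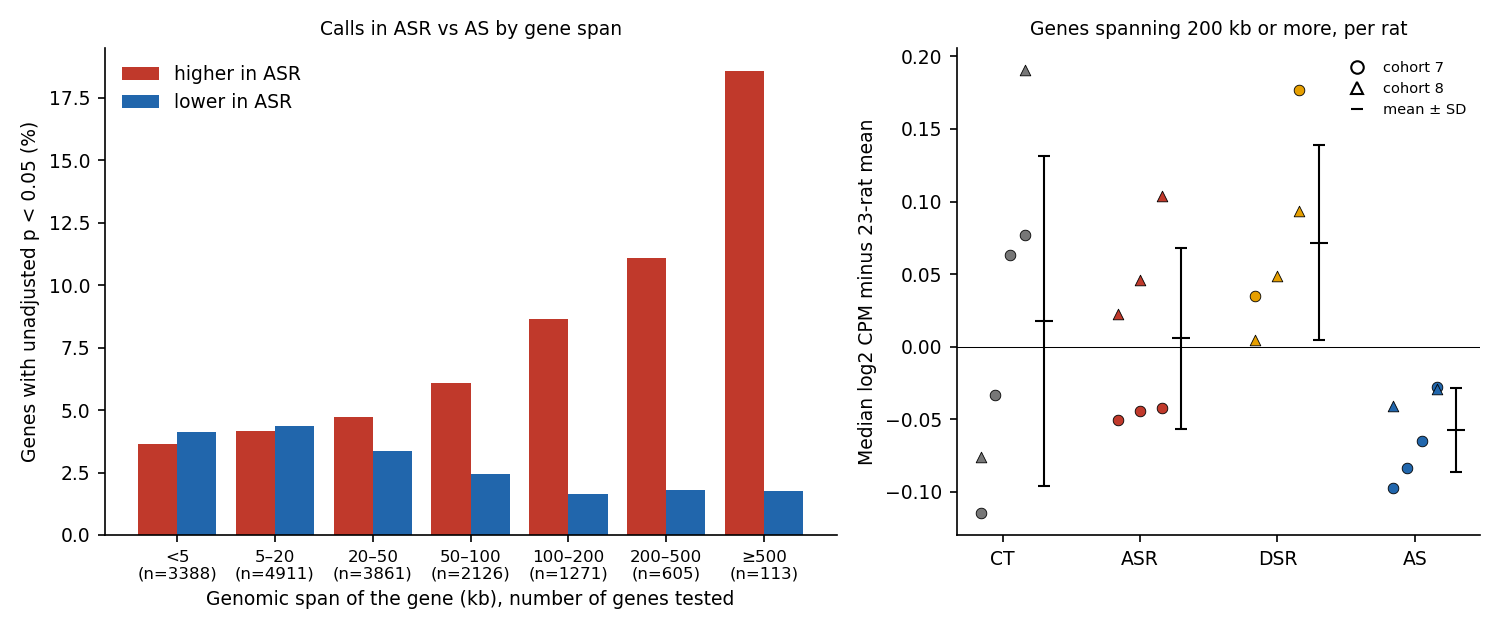
Left, percent of genes called higher (red) and lower (blue) in ASR vs AS rats at an unadjusted p under 0.05, by genomic span of the gene in kb, with the number of genes tested under each class; the share called higher goes from 3.63% to 18.6%. Right, median log2 CPM minus the mean of 23 rats over the 718 genes of 200 kb or more, 1 point per rat, with circles for cohort 7, triangles for cohort 8 and bars for the mean ± SD (n = 6 CT, 6 ASR, 5 DSR and 6 AS); 3 ASR rats, all of cohort 8, lie above every AS rat.

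By chromosome, the X chromosome had the largest share of genes called higher in ASR rats among the autosomes and the X chromosome. Of 549 X-linked genes 50 were called higher (9.11%) and 18 lower (3.28%), against 5.01% and 3.52% of 15675 autosomal genes. The share was also high among shorter genes, in which 7.94% of the 403 X-linked genes under 50 kb were called higher, against 4.08% of autosomal genes of that span. Among genes of 50 kb or more the shares were 12.3% on the X chromosome and 7.77% on autosomes. The median log2 fold change was 0.024 for X-linked and -0.011 for autosomal genes, and 0.031 and -0.0032 with RLE factors.

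The larger share of X-linked calls was found in cohort 7 and not in cohort 8. In cohort 7 alone 36 X-linked genes were called higher (6.53%, against 2.27% of all genes), and in cohort 8 alone 24 were (4.32%, below the 5.43% of all genes). The median log2 fold change of X-linked genes was 0.030 in ASR vs CT and -0.0021 in AS vs CT. The per-rat median over X-linked genes lay between -0.021 and 0.061 in ASR rats and between -0.046 and 0.0032 in AS rats, so the groups overlapped, and CT rats spanned -0.085 to 0.041. Without ASR rat Grp7-L4, 27 X-linked genes were called higher (4.93%, against 3.66% of all genes). All rats were male, and 0 of 8 Y-linked genes tested were called. Of 30 mitochondrial genes 0 were called, with a median log2 fold change of -0.024. Without AS rat Grp7-R1, the rat with the high mitochondrial share, the median was 0.14. Without that rat 3 mitochondrial genes were called higher (10%, against 4.65% of all genes). Without ASR rat Grp8-R4 1 was called higher (3.33%, against 4.19% of all genes), and in cohort 8 alone 4 were (13.3%, against 5.43%).

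On chromosome 20 more genes were called lower than higher with all rats, with 13 of 480 genes called higher (2.71%) and 26 lower (5.42%). The short arm of this chromosome is known to hold the major histocompatibility complex of the rat. Of the 26 lower genes, 15 lay in the first 10 Mb, where 225 genes were tested (6.67%). The other 11 lay beyond it, among 255 genes (4.31%). Without AS rat Grp7-R1, 4 genes were called lower in each part. Without AS rat Grp7-R9, 7 were in the first 10 Mb and 8 beyond it. The count of 26 depended on single rats. It was 8 without AS rat Grp7-R1, 10 without ASR rat Grp8-R7, 12 without ASR rat Grp8-R4, 13 without ASR rat Grp7-R10, 14 without AS rat Grp7-R2 or ASR rat Grp7-L4, and 15 without AS rat Grp7-R9. The share of all genes called lower moved as well. Without AS rat Grp7-R1, 1.67% of chromosome 20 genes were called lower, below the 2.2% of all genes, and the same held without ASR rat Grp8-R7 (2.08% and 2.26%) and without ASR rat Grp7-R10 (2.72% and 3.01%). In cohort 7 alone 13 genes were called lower (2.66%, against 1.89% of all genes) and in cohort 8 alone 3 (0.616%, against 2.24%). The larger share of lower calls on chromosome 20 was thus absent in cohort 8 and when any of these 3 rats was left out. The per-rat median over chromosome 20 genes lay between -0.031 and 0.029 in ASR and between 0.0011 and 0.056 in AS rats.

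**Figure D5:**
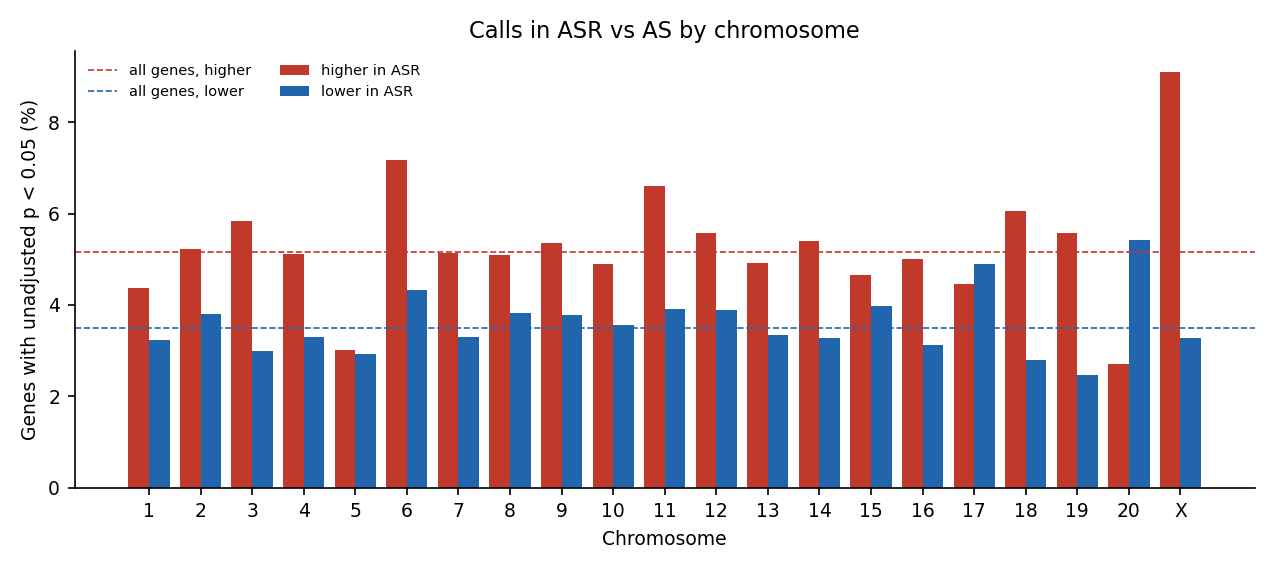
Percent of genes tested that were called higher (red) or lower (blue) in ASR vs AS rats at an unadjusted p under 0.05, for each autosome and the X chromosome; dashed lines are the shares over all genes tested (5.15% and 3.5%). With all rats, the X chromosome has the highest share called higher (9.11%), and on chromosomes 17 and 20 more genes were called lower than higher; neither the X nor the chromosome 20 pattern was present in cohort 8 alone.

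Runs of 3 or more adjacent tested genes called in the same direction numbered 8. Of these, 5 were higher (16 of the 838 genes called higher) and 3 lower (9 of the 570 called lower). How many runs would arise from calls scattered at random was not tested. The longest run, of 4 genes higher in ASR rats, lay on chromosome 2 from 89041591 to 93540328, with log2 fold changes from 0.18 to 0.72. On chromosome 10, 3 adjacent genes from 27092827 to 28187565 were higher by 0.41 to 0.56, and each of these genes had the same direction in both cohorts. Also with the same direction in both cohorts, a run of 3 genes lower in ASR rats, on chromosome 12 from 22125571 to 22152871, includes ENSRNOG00000024922 and had log2 fold changes from -0.66 to -0.17. Another run of 3 lower genes lay on chromosome 20 from 4378206 to 4401610, in which 1 pair of genes overlaps and may share reads. Their log2 fold changes ranged from -0.27 to -0.15, and 2 of the 3 genes had the same direction in cohort 8. Genes were called on both cohorts together, so a shared direction follows largely from the call. It was found in cohort 8 for 830 of 837 genes called higher and for 551 of 569 called lower.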

How the data were processed

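Dorsal striatal RNA of 23 rats was enriched with oligo(dT) beads and sequenced as paired reads. The authors used Trimmomatic 0.36 for trimming and STAR 2.5.2b for alignment to Rnor6.0, and counted unique reads in exons with featureCounts (Subread 1.5.2). They deposited raw counts without normalization. From 18967015 to 28137676 counts per library limit the precision of lowly counted genes. Groups were taken from the treatment labels. In R 4.3.3, edgeR 4.0.16 kept genes by filterByExpr (minimum count 10, minimum total count 15), scaled them with TMM factors and fitted the 4 groups together (19 residual degrees of freedom). ASR vs AS was a contrast tested by quasi-likelihood with Benjamini-Hochberg adjustment over 16275 genes. Single genes were also tested by two-sided exact permutation on log2 CPM (prior count of 2, Python 3.11.15). Each library was treated as 1 rat by its label.

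The files do not pair identifiers with symbols, and 0 rows of the reference table hold an Ensembl identifier. The 24 gene lists, the cell type markers and the genes measured by PCR were therefore not analysed here, and the naming rule left the 2 higher and 2 lower identifiers with the smallest p among genes with 1.5-fold change and at least 1 CPM. The groups, lists and rules were chosen with earlier results of these data known, and the span and chromosome classes after the data were seen. Alternatives were DESeq2 1.42.0 on 4 or 2 groups, edgeR on 2 groups, RLE factors, no filter, a log2 fold change over 1.5, cohort as a covariate, each cohort alone, the mitochondrial share as a covariate (added after seeing the data) and each rat left out.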

Additional observations from a re-analysis of the deposited data

Results flagged for a closer look

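Dixon's test was made on 34 sets of values (each measure in the ASR and in the AS rats). A rat stood apart from its group in 5 sets. All were AS rats. A rate of 1 in 20 would give about 1.7 sets, but 5 cannot be judged against it. The sets include called and named genes, which were chosen by the contrast of these same rats, and some sets share counts. Mitochondrial genes took 19.58% of the counts of rat Grp7-R1, whereas they took 11.92% to 13.29% in the remaining AS rats. The 10 most counted genes took 20.19% in this rat and 12.93% to 15.15% in the rest, and these shares rest on largely the same counts. With the mitochondrial share as a covariate, 1364 genes had an unadjusted p under 0.05 in ASR vs AS, against 1408 without it.

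ENSRNOG00000002599 was at 3.839 CPM in rat Grp7-R1, against 1.943 to 2.56 CPM in the other AS rats, and its log2 fold change was -0.49 without this rat.

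Rat Grp7-L10 had a median of -0.05895 over the 209 genes higher in ASR rats (log2 CPM minus the mean of 23 rats), against -0.8326 to -0.608 in the other AS rats. Over the 77 lower genes it had 0.09303, against 0.4036 to 0.52. These sets were chosen with this rat among the AS rats. Without it the sets held 412 and 113 genes. No explanation of these values was tested.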

How the results depend on the processing

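With all rats kept or a cohort taken alone, 73 of 92 gene counts were within a factor of 1.5 of those reported and 19 were not. The genes with an adjusted p under 0.05 numbered 21 with DESeq2 on ASR and AS rats only and 20 in cohort 8 alone. Cohort 7 alone gave 688 genes at an unadjusted p under 0.05 (375 higher and 313 lower), 18 long genes higher and 13 genes lower on chromosome 20. Cohort 8 alone gave 368 genes lower, 455 at least 1.5-fold higher and 167 at least 1.5-fold lower. It also gave 7 long genes lower (0.975%, against 2.24% of all genes), 24 X-linked genes higher and 3 genes lower on chromosome 20. Without the filter on low counts, where more genes are tested, 510 genes were 1.5-fold higher and 289 lower. With a log2 fold change over 1.5, 22 and 4 were. DESeq2 and edgeR on the 2 groups only each called 21 long genes lower (2.99% in both, against 5.1% and 4.76% of all genes). Cohorts alone hold fewer rats, and other causes were not tested.

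With each rat left out in turn, 22 of 120 counts moved by over 1.5 times. The ranges were 0 to 0 genes with an adjusted p under 0.05, 939 to 2213 with an unadjusted p under 0.05, 543 to 1522 higher, 335 to 699 lower, 139 to 412 at least 1.5-fold higher, 62 to 118 at least 1.5-fold lower, 55 to 141 long genes higher, 6 to 17 long genes lower, 27 to 73 X-linked genes higher and 8 to 28 genes lower on chromosome 20. Of 84 log2 fold changes of the 4 named genes under all alternatives, 82 kept both their direction and an unadjusted p under 0.05. In cohort 8 alone 2 lost the latter, and 0 reversed. The rule that named these 4 looked for the lowest p values among the same rats. Every alternative reused all or some of those rats, so the tally follows largely from that rule and was no test of stability. No paired analysis was possible because no rat code is shared between groups.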
